A study of Mus musculus with 6 samples.

Results

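The genes described here encode the proteins of the mitochondrial ribosome, in RNA from whole mouse aorta. They were taken from the deposited gene table as protein-coding rows whose symbol is Mrpl (large subunit) or Mrps (small subunit) followed by digits and at most 1 letter. This gave 78 of 55487 rows, and the 77 with a summed count of at least 60 over all libraries were tested. The 78th, Mrps10, had 20 counts in all. The study compared 3 control libraries, from mice with a floxed (LoxP) Ogt gene, with 3 knockout libraries, from mice with Ogt deleted specifically in smooth muscle cells. Titles carry the prefix SM22 in both groups, the name of a smooth muscle gene (Tagln), but the labels do not state the Cre line, the age or sex of the mice, or whether animals were pooled. P-values therefore measure the spread between these libraries, which may be partly technical.

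Mitochondria translate the few messenger RNAs of their own DNA on a dedicated ribosome. Its 2 ribosomal RNAs, mt-Rnr1 and mt-Rnr2, are transcribed from mitochondrial DNA, while all of its proteins are encoded in the nucleus, made in the cytosol and imported. Some of these proteins descend from those of the bacterial ribosome and others are found only in mitochondria. Products of the ribosome are core subunits of the respiratory chain and of ATP synthase. Ogt encodes O-GlcNAc transferase, which attaches a single sugar to nuclear and cytoplasmic proteins.

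Library depth was 3038782 counts for control replicate 2, the shallowest, and 18218385 for knockout replicate 3, the deepest. The median count of a tested member was 41 in control replicate 2 and 222 to 359 in the others. Ogt had 177.4, 183.2 and 150.0 CPM (counts scaled to a common TMM-adjusted library size) in the controls and 93.3, 73.5 and 70.9 CPM in the knockouts, so the labels and the targeted gene go together. Smooth muscle markers were abundant in every library, with a summed level of 31675 to 37763 CPM over 10 genes in controls and 26084 to 30884 CPM in knockouts. These sums did not overlap, and 8 of the 10 log2 fold changes were negative. By edgeR 1 marker (10%, against 1.56% of all genes), Tagln, was lower (-1.14 ± 0.19, edgeR adjusted p = 0.0331). An unadjusted p under 0.05 was found for 4 smooth muscle markers (40%, against 22.7% of all genes), 3 lower and 1 higher. The most positive log2 fold change of a smooth muscle marker was 0.61. Brown adipocyte markers moved with genotype too: 4 of 8 tested (50%, against 1.56% of all genes) were lower by edgeR, and all 8 had negative log2 fold changes. The sum over 10 brown adipocyte markers was 303 to 443 CPM in controls and 168 to 219 CPM in knockouts. Ucp1, the defining gene of brown fat, was among those 4, while Zic1 had 0 counts in 4 of the 6 libraries. The part of these markers in the results below was not tested. In bulk tissue, fewer cells of a type and less RNA per cell cannot be told apart.

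Few mitochondrial ribosomal protein genes passed the test in the knockout aorta, and their values lay on both sides of 0. Of the 77 tested genes, 1 rose (Mrps7) and 1 fell (Mrps5) at an adjusted p under 0.05 in edgeR's quasi-likelihood test. That is 2.60% of the members, against 3.45% of all 16139 genes tested, of which 1.9% were higher and 1.56% lower. Their log2 fold changes, knockout minus control, had a median of 0.06, with 43 positive and 34 negative, beside a median of -0.01 over all genes tested. At an unadjusted p under 0.05 there were 17 members (22.1%), 12 of them higher and 5 lower, against 22.7% of all genes. The share called among the members was therefore no higher than the background.

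**Figure D1:**
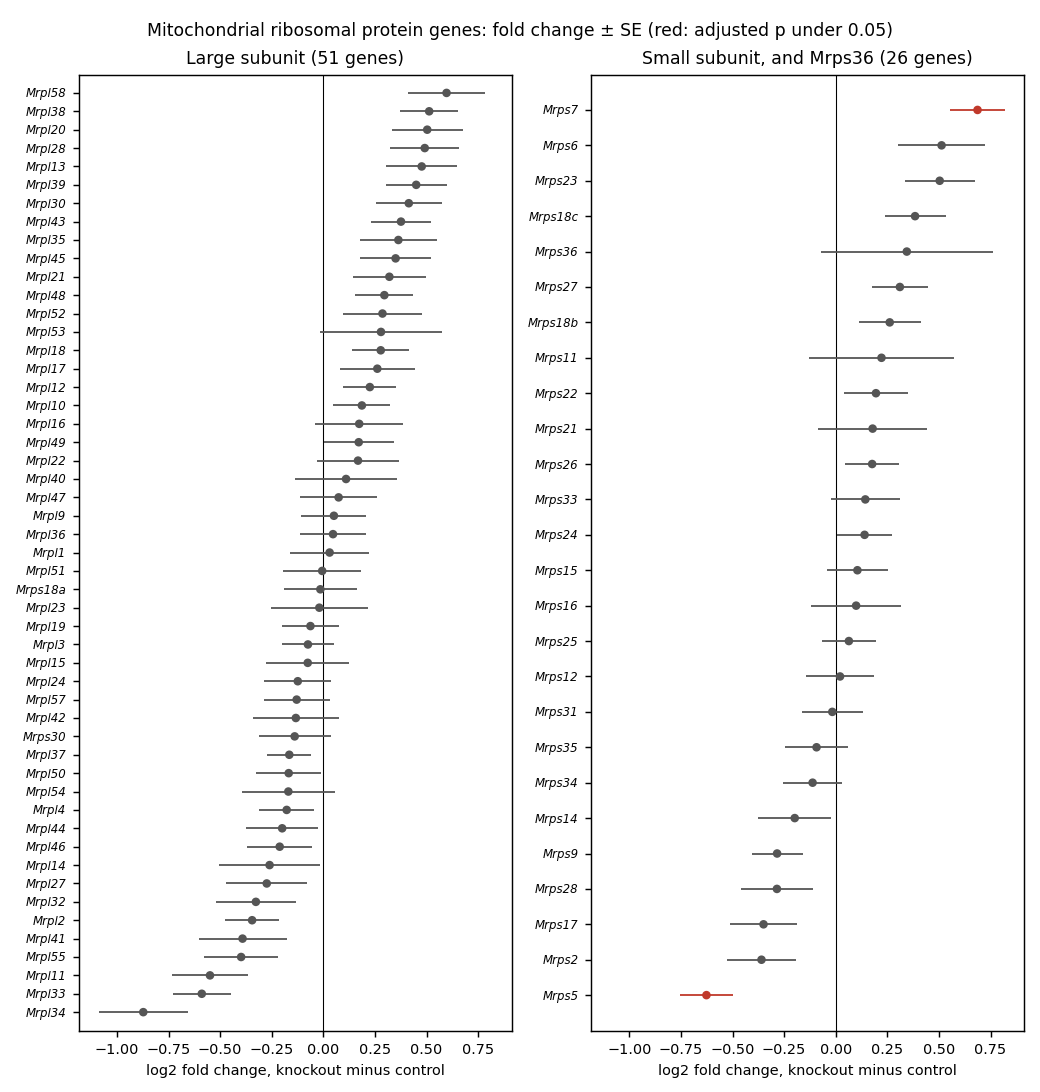
Log2 fold change (knockout minus control, x axis) of each tested member, with its standard error, for 51 large subunit genes (left) and 25 small subunit genes with Mrps36 (right). Red marks the 2 genes that passed an adjusted p of 0.05 (Mrps7 at 0.69 and Mrps5 at -0.63), and most other genes lie within 0.5 of 0 in either direction.

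Mrps7 encodes a small subunit protein of bacterial descent that sits in the head of the subunit on the ribosomal RNA (ENSMUSG00000046756, GRCm38 chromosome 11, 115603925 to 115608036, plus strand). In replicate order its level was 34.5, 31.1 and 38.2 CPM for controls, against 62.3, 54.6 and 51.5 CPM for knockouts. Each knockout library was above every control library, and the lowest knockout value was well clear of the highest control value. The mean rose from 34.6 ± 3.55 to 56.1 ± 5.55 CPM (SD, n = 3), a log2 fold change of 0.69 ± 0.13 (SE, edgeR adjusted p = 0.0416). The exons of Mrps7 overlap those of Gga3 and Mif4gd, on the opposite strand, over 6.13% and 5.74% of its exon bases, and the strand setting of the counts is not given in the sources used here. These neighbours had log2 fold changes of 0.13 ± 0.20 and -0.01 ± 0.16 (edgeR adjusted p = 0.74 and 0.978).

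Mrps5 encodes another small subunit protein of bacterial descent, located in the body of the subunit (ENSMUSG00000027374, chromosome 2, 127587222 to 127606829, plus strand). Controls had 24.5, 22.2 and 24.1 CPM, and knockouts had 14.2, 16.1 and 15.8 CPM. The groups did not overlap, and the spread within each was small beside the distance between them. The mean fell from 23.6 ± 1.22 to 15.4 ± 1.01 CPM (n = 3), a log2 fold change of -0.63 ± 0.13 (edgeR adjusted p = 0.048). No other gene of the table shares exon bases with Mrps5. The zinc finger gene Zfp661 starts 128 bases away in the opposite direction, and went from 2.64 ± 0.254 CPM in controls to 1.44 ± 0.0304 CPM in knockouts (n = 3, log2 fold change -0.87 ± 0.28, edgeR adjusted p = 0.13).

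Both calls lay close to the threshold, and each was lost when any library other than control replicate 2 was left out, while the log2 fold changes stayed between 0.62 and 0.77 for Mrps7 and between -0.66 and -0.56 for Mrps5. For Mrps7 the edgeR adjusted p was 0.141 when control replicate 1 was left out and 0.0588 when control replicate 3 was, and 0.191, 0.164 and 0.0876 when knockout replicates 1 to 3 were. The corresponding edgeR values of Mrps5 were 0.154 and 0.0953, and 0.221, 0.184 and 0.108. In these 5 fits 7 to 280 of all genes were called (0.0427% to 1.69%), against 557 (3.45%) with all libraries. The loss of calls was thus not particular to these genes. Leaving out control replicate 2, the shallowest library, kept both calls (edgeR adjusted p = 0.0405 for Mrps7 and 0.0362 for Mrps5). Without that library 5 members were called, Mrps7 and Mrpl28 higher and Mrps5, Mrpl11 and Mrpl34 lower. This was 6.49% of members against 5.51% of all genes.

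**Figure D2:**
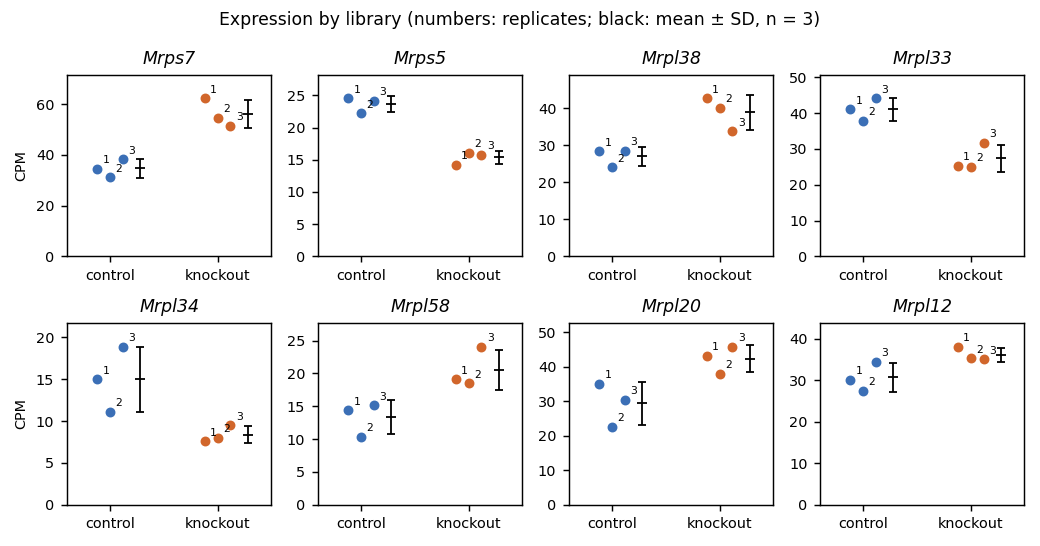
CPM (y axis, from 0) of 8 members in each library, with replicate numbers beside the points and the mean ± SD of 3 libraries in black. Mrps7 lies between 51.5 and 62.3 CPM in knockouts and between 31.1 and 38.2 CPM in controls, and Mrps5 shows the opposite arrangement.

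Sequences around the starts of these genes are shown for the 4 members with the smallest p-values, together with Mrpl12 and Mrpl58. Of these 6 genes, only Mrps7 and Mrps5 passed the test. The sequences let promoters of genes with log2 fold changes of opposite sign be read side by side. Each is the RefSeq window on GRCm38.p6 from 250 bases before to 50 bases after the start that RefSeq gives for the gene, 5′ to 3′ on the gene's own strand, which is plus for all 6. The RefSeq start is not always that of the deposited table: it lies inside the table's gene by 215 bases for Mrps7, 204 for Mrps5, 24 for Mrpl12 and 17016 for Mrpl33, lies 33 bases before it for Mrpl34, and is the same for Mrpl58. Capitals mark matches, on either strand, to the NRF1 core motif and to the motifs CCGGAAG (an ETS and GABP site), AAGATGG (a YY1 site), CACGTG (an E-box) and TATAAA.
Mrps7, chr11:115603890-115604189: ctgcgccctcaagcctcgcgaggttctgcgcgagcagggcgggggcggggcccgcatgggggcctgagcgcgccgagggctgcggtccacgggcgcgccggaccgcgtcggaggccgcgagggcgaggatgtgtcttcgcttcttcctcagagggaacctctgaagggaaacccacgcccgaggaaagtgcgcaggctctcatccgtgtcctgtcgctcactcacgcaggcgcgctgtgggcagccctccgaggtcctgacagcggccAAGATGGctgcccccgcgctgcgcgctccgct
Mrps5, chr2:127587176-127587475: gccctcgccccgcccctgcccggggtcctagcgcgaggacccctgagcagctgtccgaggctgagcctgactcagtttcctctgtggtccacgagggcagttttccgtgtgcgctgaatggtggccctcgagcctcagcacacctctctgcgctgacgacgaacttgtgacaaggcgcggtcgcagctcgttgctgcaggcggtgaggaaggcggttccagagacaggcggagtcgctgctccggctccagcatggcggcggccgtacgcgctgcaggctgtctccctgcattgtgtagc
Mrpl33, chr5:31613701-31614000: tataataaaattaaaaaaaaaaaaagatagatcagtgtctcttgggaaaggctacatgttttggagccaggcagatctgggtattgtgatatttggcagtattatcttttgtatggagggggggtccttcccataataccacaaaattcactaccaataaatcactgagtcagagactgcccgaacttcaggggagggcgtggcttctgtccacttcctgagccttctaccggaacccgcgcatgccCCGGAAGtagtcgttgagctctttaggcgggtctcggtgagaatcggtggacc
Mrpl34, chr8:71464676-71464975: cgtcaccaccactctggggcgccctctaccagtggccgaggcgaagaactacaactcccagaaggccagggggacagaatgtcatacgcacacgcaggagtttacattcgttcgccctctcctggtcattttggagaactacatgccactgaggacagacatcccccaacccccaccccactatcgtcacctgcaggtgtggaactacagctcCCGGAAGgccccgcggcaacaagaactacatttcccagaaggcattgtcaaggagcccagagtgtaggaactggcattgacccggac
Mrpl12, chr11:120484387-120484686: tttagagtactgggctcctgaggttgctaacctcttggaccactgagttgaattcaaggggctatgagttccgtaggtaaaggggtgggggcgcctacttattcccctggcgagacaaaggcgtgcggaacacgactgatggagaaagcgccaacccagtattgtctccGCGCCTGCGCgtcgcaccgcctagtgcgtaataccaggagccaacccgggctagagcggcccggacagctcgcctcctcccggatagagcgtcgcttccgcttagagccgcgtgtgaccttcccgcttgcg
Mrpl58, chr11:115403502-115403801: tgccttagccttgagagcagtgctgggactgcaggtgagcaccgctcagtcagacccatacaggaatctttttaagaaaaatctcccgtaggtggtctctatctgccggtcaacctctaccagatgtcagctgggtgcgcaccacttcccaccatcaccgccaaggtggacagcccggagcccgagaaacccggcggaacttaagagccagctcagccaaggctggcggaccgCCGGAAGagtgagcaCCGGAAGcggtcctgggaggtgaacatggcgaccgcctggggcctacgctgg
The Mrps7 window holds 1 match, to the YY1 site, and that of Mrps5 holds none of the 5 motifs. Mrpl33 and Mrpl34 each hold 1 ETS match, Mrpl58 holds 2, and Mrpl12 holds 1 NRF1 match. The Mrps7 match begins 18 bases after the RefSeq start, and that of Mrpl12 begins 81 bases before it. The ETS matches begin 37 bases before the start for Mrpl34, 3 before for Mrpl33, and 17 and 2 before for Mrpl58, so that of Mrpl33 and the second of Mrpl58 span the start. Windows with an ETS match thus belong to genes with negative (Mrpl33 and Mrpl34) and with positive (Mrpl58) log2 fold changes. None of these genes passed the test.

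Over the whole family, 69 of the 78 genes had such a window. An ETS match was present for 26 of them (37.7%), against 19.0% of the 10899 tested genes with a window and 9.93% of all 27025 genes in the promoter table. An NRF1 match was present for 13 members (18.8%), against 10.9% of tested genes and 5.19% of all. A YY1 match was present for 13 members (18.8%), against 8.11% and 7.28%. E-box and TATA matches were each present for 5 members (7.25%), against 11.5% and 9.0% of tested genes. A match describes letters in the window, and binding was not measured.

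The next members by p-value did not pass the test. Mrpl33, a large subunit protein of bacterial descent, had 41.0, 37.8 and 44.1 CPM in controls and 25.3, 25.1 and 31.7 CPM in knockouts (log2 fold change -0.59 ± 0.14, edgeR adjusted p = 0.0661). Mrpl34, the homologue of a very small bacterial large subunit protein, had 15, 11.1 and 18.9 CPM in controls and 7.57, 8.0 and 9.49 CPM in knockouts. Its log2 fold change of -0.87 ± 0.22 was the furthest from 0 in the family (edgeR adjusted p = 0.0707). The groups of both genes did not overlap. DESeq2, a different count model, called both lower as well as Mrps7 and Mrps5, which makes 4 of 77 members (5.19%) against 9.30% of all genes. By limma-voom 3 members passed (Mrps7, Mrps5 and Mrpl34), or 3.90% against 4.73%.

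On the positive side, Mrpl38, a mitochondria-specific protein of the central protuberance of the large subunit, had 28.5, 24.1 and 28.5 CPM in controls and 42.7, 40.2 and 33.8 CPM in knockouts. Its log2 fold change was 0.51 ± 0.14 (edgeR adjusted p = 0.0881). Mrpl58 (also known as ICT1), a peptidyl-tRNA hydrolase built into the large subunit that can release stalled chains, had 14.4, 10.4 and 15.2 CPM in controls and 19.1, 18.5 and 24.1 CPM in knockouts (0.60 ± 0.19, edgeR adjusted p = 0.12). The groups did not overlap for either gene, yet neither passed. Mrpl20 (0.50 ± 0.17), Mrps23 (0.50 ± 0.17) and Mrps6 (0.51 ± 0.21) completed the 6 most positive values after Mrps7, Mrpl58 and Mrpl38, with edgeR adjusted p-values of 0.144, 0.14 and 0.207. Mrps6 was the one of these whose groups overlapped, since knockout replicate 3 had 18.4 CPM and control replicate 3 had 19.3 CPM.

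After Mrpl34, Mrps5 and Mrpl33, the most negative log2 fold changes were those of Mrpl11, a protein of the base of the large subunit stalk (-0.55 ± 0.18, edgeR adjusted p = 0.134), Mrpl55 (-0.40 ± 0.18, 0.237) and Mrpl41 (-0.39 ± 0.21, 0.321). Mrpl11 had 16.6, 11.5 and 16.4 CPM in controls and 9.36, 10.5 and 11.1 CPM in knockouts, with control replicate 2 only just above the knockout range. Mrpl12, the stalk protein that has also been linked to the mitochondrial RNA polymerase, had 30.2, 27.4 and 34.5 CPM in controls and 38.1, 35.3 and 35.0 CPM in knockouts (0.23 ± 0.13, edgeR adjusted p = 0.34). The stalk proteins Mrpl11 and Mrpl12 thus had values of opposite sign, and the difference between them was not tested.

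Calls and signs were counted in each subunit, beside 3.45% called and 22.7% at an unadjusted p under 0.05 over all genes. Among 51 large subunit genes, which include Mrps30 and Mrps18a because their proteins sit in that subunit, the edgeR count of calls was 0, that of DESeq2 2 and that of limma-voom 1, with 12 genes (23.5%) at an unadjusted p under 0.05. Log2 fold changes were positive for 26 and negative for 25, with a median of 0.03. Among 25 small subunit genes 2 were called (8%) and 5 had an unadjusted p under 0.05 (20%), with 16 positive and 9 negative values and a median of 0.10. Both called genes are homologues of bacterial proteins. Of the 30 mitochondria-specific proteins, edgeR called 0, 5 had an unadjusted p under 0.05 (16.7%, all higher), and the median was 0.13. Of the 46 with bacterial homologues, 2 were called (4.35%), 12 had an unadjusted p under 0.05 (26.1%), and the median was 0.04. Differences between these classes were not tested. Mrps36, whose protein is now placed in a dehydrogenase complex rather than in the ribosome, belonged to neither subunit here (0.34 ± 0.42, edgeR adjusted p = 0.662).

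Groups were apart, with every knockout library on the same side of every control library, for 29 of the 77 members (37.7%), 19 higher and 10 lower. The same held for 31.8% of all genes tested, 16.9% higher and 14.8% lower. Control replicate 2 was below both other controls for 60 of 77 members (77.9%), against 44.8% of all genes, and was the lowest of the 6 libraries for 39 members (50.6%), against 32.7%. Without it the median log2 fold change of the members was 0.01, with 39 positive and 38 negative values.

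**Figure D3:**
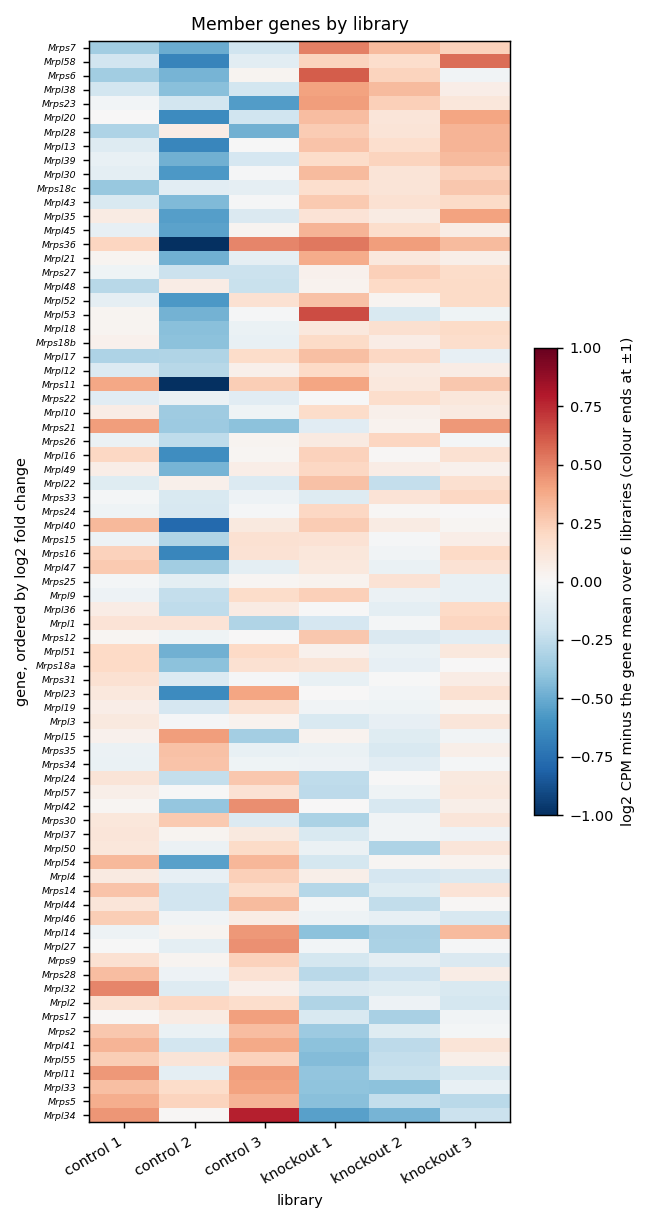
Log2 CPM of each of the 77 tested members (rows, ordered by log2 fold change) in each library (columns), relative to the gene's mean over the 6 libraries. Control replicate 2 is blue for most rows in the upper part of the plot, where it lies below the other 2 controls.

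Summed over the 77 tested members, expression was 1635, 1366 and 1667 CPM in control replicates 1 to 3 and 1678, 1608 and 1699 CPM in knockout replicates 1 to 3. Control replicate 2 was the one library outside a narrow range, and the other 2 controls fell among or beside the knockouts. The large subunit summed to 933 to 1174 CPM in controls and 1102 to 1183 CPM in knockouts, which overlap. The small subunit summed to 433 to 494 CPM in controls and 502 to 522 CPM in knockouts, which do not overlap. This difference was not tested. The sum includes the called gene Mrps7, with 31.1 to 38.2 CPM in controls and 51.5 to 62.3 CPM in knockouts. The step from the highest control sum to the lowest knockout sum is smaller than the rise of Mrps7 alone. The separation is thus not shown for the rest of the subunit. The sum of the large subunit was 2.31, 2.16 and 2.40 times that of the small subunit in controls, and 2.21, 2.20 and 2.31 times in knockouts, so the groups overlapped in this ratio. As a share of all counts of nuclear protein-coding genes, the members took 0.169% to 0.213% in controls and 0.202% to 0.208% in knockouts.

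The ribosome's own RNA and the messenger RNAs it reads come from mitochondrial DNA. The 2 mitochondrial ribosomal RNAs took 10.2% of counts in control replicate 2 and 0.491% to 0.823% in the other 5 libraries (two-sided exact permutation test p = 1). Control replicate 2 alone sets the difference of means, so this test cannot decide about genotype. The other controls had 0.491% and 0.496%, and knockouts 0.530% to 0.823%. The log2 fold changes of -2.97 ± 1.45 (mt-Rnr1) and -2.44 ± 1.32 (mt-Rnr2) became 0.41 and 0.59 without control replicate 2, and neither passed the test. The 13 mitochondrial messenger RNAs summed to 76814, 62223 and 100949 CPM in controls and 133465, 148232 and 114561 CPM in knockouts. All knockout libraries were above all controls (two-sided exact permutation test of their share of counts p = 0.1, the smallest that 3 against 3 libraries allow). Of the 13, edgeR called 0, and 11 (84.6%) had an unadjusted p under 0.05, all higher, against 22.7% of all genes. DESeq2 called 9 and limma-voom 2, against 9.30% and 4.73% of all genes. Groups were apart for 12 of the 13 (92.3%), all higher, against 31.8% of all genes. The summed level of the 13 was 79995 ± 19558 CPM in controls and 132086 ± 16878 CPM in knockouts, beside 1556 ± 165 and 1661.6 ± 47.5 CPM for the member genes (SD, n = 3). Whether these differences differ from each other was not tested.

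**Figure D4:**
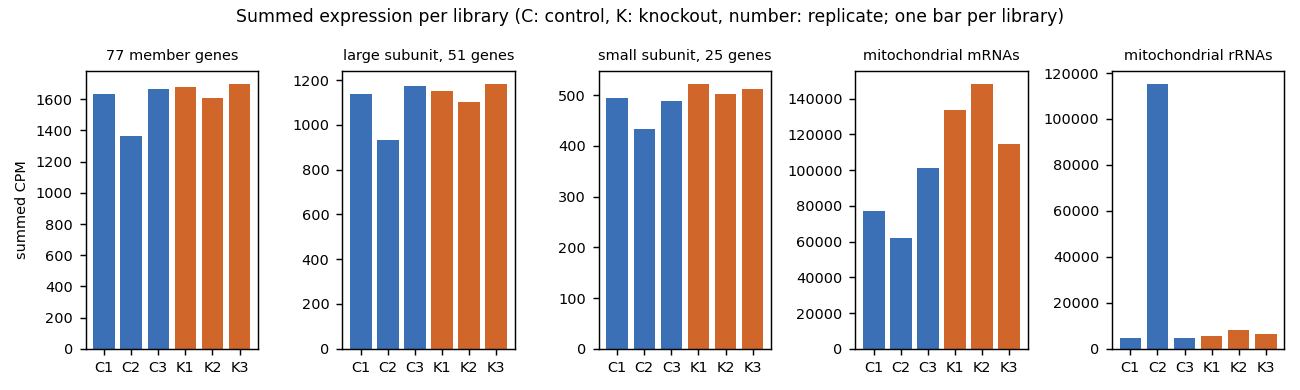
Summed CPM (y axis, from 0) per library for all tested members, each subunit, the 13 mitochondrial messenger RNAs and the 2 mitochondrial ribosomal RNAs; blue bars are controls and orange bars knockouts. The sums over all members are nearly level apart from control replicate 2, which also has the high ribosomal RNA bar. For the small subunit, whose sum includes the called gene Mrps7, each knockout bar is above each control bar.

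Levels between genes were compared in FPKM, fragments scaled to gene length and library size, as the authors deposited them. The mean over 6 libraries ran from 1.27 FPKM for Mrps36 to 19.4 FPKM for Mrpl34, with a median of 5.98 FPKM over the tested members against 3.49 FPKM over all tested protein-coding genes. The median was 6.02 FPKM for large and 5.98 FPKM for small subunit genes. Genes for parts of 1 particle thus differed widely in FPKM, which also depends on the single length used for each gene. Over both genotypes the 4 highest were Mrpl34, Mrps7 (19.2 FPKM), Mrpl12 (18.0 FPKM) and Mrpl54 (17.2 FPKM). After Mrps36, the lowest were Mrpl15 (1.3 FPKM), Mrpl32 (1.45 FPKM) and Mrps17 (1.54 FPKM). The order by reads was not the same. Mrpl15 and Mrps17 had 1231 and 1638 counts in all, more than Mrpl34 with 907, so their places rest on the lengths used. Mrpl34 had 25.2 ± 8.47 FPKM and Mrpl54 18.2 ± 6.95 FPKM in controls. In control replicates 1 to 3 Mrpl34 had 26.1, 16.3 and 33.1 FPKM and Mrpl54 22.1, 10.2 and 22.3 FPKM. Mrpl34 was thus higher in each control library, and the difference was not tested. The order depended on genotype: in knockouts Mrps7 was the highest with 23.6 FPKM, and 10 members were above Mrpl34 with 13.7 FPKM.

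**Figure D5:**
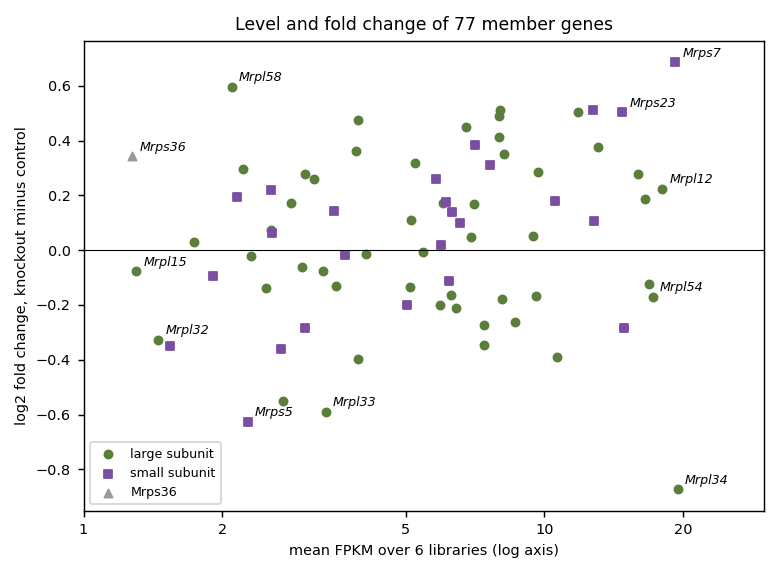
Mean FPKM over 6 libraries (x axis, log scale) against log2 fold change (y axis) for the 77 tested members, by subunit. Mrps7 and Mrpl34, the 2 genes at the right edge with 19.2 and 19.4 FPKM, have the most positive and the most negative log2 fold change.

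Mrps10 stood apart with 3, 1 and 6 counts in controls and 6, 3 and 1 in knockouts, and was not tested. Mrps36, the tested member with the fewest counts, had 288, of which 2 came from control replicate 2. That library also gave Mrps36 the largest departure from the other controls, 2.32 lower on the log2 scale. Mrps11 had 9 counts in control replicate 2 and 136 to 195 in the other 5 libraries. Values of such genes rest on few reads in that library.

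Member genes lay on 17 chromosomes, with 11 of the 77 on chromosome 11. Many are packed closely against other genes. A protein-coding gene started on the opposite strand within 1000 bases upstream of 18 members (23.4%), against 9.82% of all tested protein-coding genes. Such head-to-head partners included Sars2, the mitochondrial seryl-tRNA synthetase, 172 bases from Mrps12, and Fau, a cytosolic ribosomal protein gene, 59 bases from Mrpl49. Their log2 fold changes were -0.14 ± 0.21 and 0.59 ± 0.21 (edgeR adjusted p = 0.799 and 0.15), beside 0.02 for Mrps12 and 0.17 for Mrpl49. Exons of 32 members overlapped those of another gene in the table, for 16 of them over at least 10% of the member's exon bases. The overlap reached 88.0% for Mrpl53 with the row Gm42688, 69.8% for Mrps25 with Nr2c2 and 63.4% for Mrps34 with Mapk8ip3, so counts of these members are uncertain. Mrpl46 and Mrps11 overlap each other. Pseudogene rows described as mitochondrial ribosomal proteins, 5 in number, held 1034 counts in all, 633 of them in Mrpl48-ps, and reads could be divided between it and Mrpl48.

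Other genes of mitochondrial translation were read from lists chosen with earlier results of these data known. The 5 ribosomal proteins with other names had 0 called by edgeR, DESeq2 or limma-voom and 1 (20%) at an unadjusted p under 0.05. The latter was Gadd45gip1, a large subunit protein (0.53 ± 0.22, edgeR adjusted p = 0.205). Chchd1 (0.46 ± 0.20), Aurkaip1 (0.16 ± 0.18), Dap3 (0.14 ± 0.11) and Ptcd3 (-0.13 ± 0.15), all of the small subunit, made up the rest. The median over these 5 was 0.16.

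Translation factors held the 2 calls of this machinery outside the ribosome. Guf1, a GTPase related to bacterial elongation factor LepA, had 32.4, 30.4 and 37.0 CPM in controls and 17.4, 15.7 and 19.3 CPM in knockouts. It fell from 33.3 ± 3.38 to 17.5 ± 1.8 CPM (n = 3; log2 fold change -0.94 ± 0.14, edgeR adjusted p = 0.027). Mtrf1, a mitochondrial release factor, had 5.22, 8.16 and 4.36 CPM in controls and 1.53, 2.24 and 1.96 CPM in knockouts, and fell as well (-1.56 ± 0.32, edgeR adjusted p = 0.046). Its values rest on few reads: 76, 22 and 60 counts in controls and 18, 38 and 36 in knockouts. The highest control CPM came from control replicate 2, the shallowest library. For both genes the groups were apart. Leaving out control replicate 2 kept both calls, and leaving out any of the other 5 libraries ended them (edgeR adjusted p from 0.0554 to 0.156 for Guf1 and from 0.0588 to 0.2 for Mtrf1). Those 5 fits called 7 to 280 of all genes, against 557 with all libraries. In them the log2 fold change stayed between -1.01 and -0.85 for Guf1 and between -1.74 and -1.42 for Mtrf1. Of 21 translation factors tested these 2 (9.52%) were lower, against 1.56% of all genes, and 0 were higher. The median log2 fold change of the 21 was -0.03. Mrrf, the ribosome recycling factor (0.88 ± 0.27, edgeR adjusted p = 0.118), and Tufm, the elongation factor that delivers aminoacyl-tRNA (0.41 ± 0.18, 0.233), did not pass.

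Among 29 tested genes of ribosome assembly and ribosomal RNA modification edgeR called 0, and the median was -0.10. An unadjusted p under 0.05 was found for 8 (27.6%), against 22.7% of all genes. Those with the smallest p were the pseudouridine synthase gene Trub2 (0.44 ± 0.12, edgeR adjusted p = 0.0936), Fastk (-0.42 ± 0.13, 0.12) and Mterf3 (-0.42 ± 0.14, 0.126). Among 20 mitochondrial aminoacyl-tRNA synthetases edgeR called 0, with 3 (15%) at an unadjusted p under 0.05 and a median of -0.11. Among them were Aars2 (0.55 ± 0.13, edgeR adjusted p = 0.067) and Tars2 (-0.44 ± 0.12, 0.0921). DESeq2 called 0 of the assembly genes and 1 synthetase, and limma-voom 0 of either. Taking these 4 lists as one, 2 of 75 tested genes were called (2.67%), close to the share of all genes.

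Genes that transcribe and copy mitochondrial DNA gave 0 calls among 17 by edgeR, DESeq2 or limma-voom. An unadjusted p under 0.05 was found for 4 (23.5%, against 22.7% of all genes), and the median was -0.19. The RNA polymerase gene Polrmt had 28.2, 27.8 and 25.8 CPM in controls and 24.4, 23.2 and 23.8 CPM in knockouts (-0.19 ± 0.12, edgeR adjusted p = 0.369). Tfam, which packages mitochondrial DNA, had -0.21 ± 0.19 (0.548). Mterf2 (-1.32 ± 0.47), Mgme1 (0.54 ± 0.20) and Hsd17b10 (-0.35 ± 0.14) had the smallest p-values of that list, with edgeR adjusted p of 0.152, 0.167 and 0.207. Of 9 tested regulators of mitochondrial biogenesis edgeR, DESeq2 and limma-voom called 0, and Gabpb1, a subunit of the ETS factor GABP, was the 1 gene with an unadjusted p under 0.05 (0.41 ± 0.14, edgeR adjusted p = 0.133). Ppargc1b (-0.95 ± 0.52) and Ppargc1a (-0.59 ± 0.42) were high in control replicate 2 and did not pass, with edgeR adjusted p of 0.324 and 0.44.

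Of 20 genes for general mitochondrial components edgeR called 0 and DESeq2 called 2, against 3.45% and 9.30% of all genes. An unadjusted p under 0.05 was found for 7 (35%), 5 higher and 2 lower, against 22.7% of all genes. The median was 0.02. The import receptor gene Tomm22 (0.77 ± 0.22, edgeR adjusted p = 0.0988) and the outer membrane channel gene Vdac3 (0.49 ± 0.15, 0.109) had positive values. Cs, the citrate synthase gene often used as a measure of mitochondrial content, had 203, 181 and 211 CPM in controls and 144, 144 and 162 CPM in knockouts (-0.40 ± 0.12, edgeR adjusted p = 0.106). As in the ribosome, values of either sign stood side by side within this list.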

How the data were processed

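RNA-seq was measured in 6 libraries of whole mouse aorta. Per the submitters' processing notes the tools were CASAVA 1.8, HISAT2, SAMtools 1.3.1 and edgeR, and the build was GRCm39. The gene positions in the table instead equal those of GENCODE M21 (GRCm38) for 99.4% of shared identifiers, and are given as GRCm38. The authors deposited raw counts per gene and FPKM in 1 table, per the file headers, and no source used here gives the counting program, annotation or strand setting. Counts were tested with edgeR 4.0.16 in R 4.3.3 (TMM scaling, filterByExpr, robust quasi-likelihood fit of knockout against control, Benjamini-Hochberg adjustment over 16139 genes, threshold 0.05). CPM use TMM-adjusted library sizes, and no sample was dropped. FPKM served for levels between genes. Alternatives were DESeq2 1.42.0, limma-voom (limma 3.58.1), other scalings and filters, a replicate block and leaving out each library. The fit was tested on simulated data. It called 2 of 67 genes changed 1.5-fold, 31 of 66 changed 2-fold and 61 of 64 changed 4-fold. Of its 107 calls, 13 were of unchanged genes. It thus recovered 2.99% of genes at 1.5-fold and 47.0% at 2-fold, so a member changed by 2-fold or less could often go uncalled.

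Members and gene lists were chosen with earlier results of these data known. Genes named were members past the threshold, the 6 most positive and 6 most negative values, the 6 smallest p, the 4 highest and 4 lowest FPKM, the gene furthest down in control replicate 2, the untested member, a preset set of related genes and up to 3 genes per further list. Mrpl28, Mrps11 and the neighbours by position were chosen after their values were seen. Of 78 members 69 matched a RefSeq promoter window. Intervals of the tests rest on 3 libraries a group, and depth limits control replicate 2 most.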

Additional observations from a re-analysis of the deposited data

How the results depend on the processing

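Of the members, edgeR called 2, DESeq2 4, limma-voom 3, and edgeR without a filter on low counts 1. Leaving out 1 library gave 0 to 5 calls, with 5 without control replicate 2 and 0 without any other. Large subunit calls were 2 with DESeq2, 1 with limma-voom and 0 to 3 with a library left out. Small subunit calls were 1 without a filter and 0 to 2 with a library left out. Over all genes, DESeq2 called 1501, and leaving out a library gave 7 to 911 calls. For the 4 translation lists the numbers were 4 with DESeq2 and 0 to 4. The cause was not tested. Replicate numbers follow the sample titles. The deposited column names number the libraries otherwise and share no number between groups, so matching by replicate number is arbitrary. Deviations of same-numbered libraries had correlations of 0.05, 0.10 and -0.06, within the range of -0.105 to 0.104 of differently numbered ones. Such weak values cannot exclude a pairing, and the labels do not state one. With the replicate number as a block, calls were 0 among members, 0 in the small subunit, 0 in the translation lists and 28 over all genes. The log2 fold change of Mrpl15 turned to 0.017 with limma-voom, and ranged from -0.25 to 0.10 with a library left out. Mrpl15 was not alone in changing sign. Over the 15 alternative fits Mrpl51 changed sign in 6, Mrpl23 and Mrps18a in 5 each and Mrps31 in 3, against 2 for Mrpl15. Counts of positive and negative members are thus uncertain for genes near 0. The log2 fold changes of mt-Rnr1 and mt-Rnr2 ranged from -3.50 to 0.41 and from -2.96 to 0.59, positive without control replicate 2. The member median stayed between 0.01 and 0.12 in all of these fits. Other scalings kept both member calls. Control replicate 2, with 3038782 counts, limits what low members can show.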
